A study of Mus musculus with 12 samples.

Results

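Of 18193 genes measured on the arrays, 93 encode subunits of oxidative phosphorylation or proteins that build its complexes, and their transcripts were followed in mouse embryonic stem cells given L-proline. They were chosen by symbol alone: those beginning with Ndufa, Ndufb, Ndufc, Ndufs, Ndufv, Uqc or Atp5, those beginning with Cox4 to Cox8, and the succinate dehydrogenase genes Sdha to Sdhd. Where several probe sets named only 1 gene, the brightest on average over 12 arrays stood for it. Sorted by the complex their products belong to, 34 were subunits of complex I, 4 of complex II, 8 of complex III, 19 of complex IV and 17 of complex V, and 11 were assembly factors. Ndufa4, now known as a complex IV protein, and its paralog Ndufa4l2 were counted with complex IV.

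Oxidative phosphorylation takes place in the inner mitochondrial membrane. Complex I oxidises NADH and complex II oxidises succinate, complex III passes their electrons to cytochrome c, complex IV hands them to oxygen, and complex V, the ATP synthase, uses the proton gradient that this builds. Most subunits are encoded in the nucleus, and several have a general form and a form of muscle, lung or testis. As background, naive mouse embryonic stem cells are known to respire as well as to use glycolysis, while primed epiblast cells lean more on glycolysis and are known for lower respiration.

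The proline group, called PiCs in the labels, and the control group, called ESCs, are both TBV2 cells, a wild-type line of 129/SvP background. Per the labels' protocols both were seeded sparsely on gelatin without feeders and grown for 5 days with leukemia inhibitory factor (LIF) present and non-essential amino acids absent, and 500 µM L-proline was added to the proline group. Each group holds 6 arrays, numbered as 2 biological replicates of 3 arrays. All cells are of 1 line, and the labels do not say whether the replicates were separate cultures, so p-values measure the spread between these samples, which may be partly technical.

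Pou5f1 (Oct4), a mark of pluripotent cells, averaged a log2 signal of 13.15 with proline and 13.44 in controls, and Sox2 averaged 12.02 and 12.57. Among the 8 core pluripotency genes that include both, 2 rose, Epcam by 1.25 and Fut4 by 1.60, and 0 fell. Fut4 averaged 6.37 with proline and 4.78 in controls, the latter below the 40th percentile of probe sets (5.36). Of 12 naive pluripotency genes 6 fell and 0 rose, and of 8 primed epiblast genes 4 rose and 0 fell. Markers of fibroblasts, extraembryonic endoderm, trophoblast and muscle held 0 called genes among 9, 8, 8 and 8, with 1, 1, 3 and 2 at an unadjusted limma p under 0.05. Over all genes 4.36% were called and 22.1% reached that unadjusted p. By log2 fold change, the markers of these lists that reached it were Dcn (0.77), Dab2 (1.68), Gata3 (0.86), Tfap2c (-0.69), Ascl2 (-0.59), Actc1 (1.49) and Myh6 (-0.60). Dab2 had an adjusted p of 0.0545 in limma. Krt8 and Krt18 measured 2.06 and 2.39 with wide differences between replicates (adjusted p = 0.459 and 0.346 in limma). Of the 9, 8, 8 and 8 markers, 4, 3, 2 and 4 lay below 5.36 in every replicate. Among 7 neural progenitor markers 3 rose and 1 fell. Their log2 signals summed to 44.8 and 43.3 in the proline replicates, against 39.9 and 40.8 in the control replicates, with 2 of 7, Sox1 and Neurog2, below the 40th percentile of probe sets (5.36) in every replicate. The markers that rose were Nes, Fabp7 and Zfp521, and Tubb3, of young neurons, fell. Their part in the results below was not tested. Array controls differed between the groups and moved with the replicate number in both. The 18S ribosomal RNA signal was 9.74 and 8.35 with proline against 10.74 and 10.04 in controls (log2), a difference of -1.35 with no overlap. The poly-A spike-ins read 8.02 and 7.55 with proline against 8.35 and 7.999 in controls, a difference of -0.39 with the groups overlapping slightly. For beta-actin, the log2 signal at the 5' end less that at the 3' end was higher in replicate 2 than in replicate 1 by 0.42 in proline and 0.40 in control, and the 18S signal of replicate 2 minus replicate 1 was -1.39 in proline and -0.70 in control. The part of these controls in the results below was not tested. In such bulk samples fewer cells of a type and less RNA per cell cannot be told apart.

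Some sequence motifs, which the choice by symbol did not use, were more common in the promoters of these genes than in all promoters. RefSeq promoter windows (GRCm38.p6, from 250 bases before to 50 bases after a gene's start) were at hand for 77 of the 93 genes, as 82 windows. A motif known as a site of nuclear respiratory factor 1 (NRF1), spelled GCGC, then any base, then TGCGC, stood in 19 of the 82 windows, or 23.2%, against 4.6% of all 32851 promoter windows. CCGGAAG, the core of sites for GABP and other ETS factors, was found in 23.2% against 8.86%, and AANATGGC, a YY1 site, in 22.0% against 6.05%. Both strands were searched, and at least 1 of the 3 motifs was present in 58.5% of the members' windows and 17.4% of all. YY1 matches were in 11 of 33 complex I windows and 0 of 13 complex IV windows. A match is a run of letters and does not show that a factor binds there. The windows compared were not matched for base content or expression level.

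Windows are printed for 8 genes named below, 5′ to 3′ on the gene's strand, with motif matches in capitals and other bases in lower case. All 8 failed to pass the adjusted threshold used below. For Ndufaf6, the 1 member that passed, no window was at hand. The 3 genes for subunit c of ATP synthase come first, since they encode the same mature protein.
Atp5g1: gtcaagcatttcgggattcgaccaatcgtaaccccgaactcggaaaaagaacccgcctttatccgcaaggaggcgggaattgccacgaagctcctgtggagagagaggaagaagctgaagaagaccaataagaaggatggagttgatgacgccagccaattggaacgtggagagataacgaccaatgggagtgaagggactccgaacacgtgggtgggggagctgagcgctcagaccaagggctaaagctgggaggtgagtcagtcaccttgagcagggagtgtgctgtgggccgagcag
Atp5g2: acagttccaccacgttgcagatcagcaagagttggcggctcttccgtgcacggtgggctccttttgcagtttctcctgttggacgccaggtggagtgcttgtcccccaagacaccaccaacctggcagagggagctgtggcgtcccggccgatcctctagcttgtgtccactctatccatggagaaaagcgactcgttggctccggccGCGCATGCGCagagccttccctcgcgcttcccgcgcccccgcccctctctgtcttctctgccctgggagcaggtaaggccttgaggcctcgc
Atp5g3: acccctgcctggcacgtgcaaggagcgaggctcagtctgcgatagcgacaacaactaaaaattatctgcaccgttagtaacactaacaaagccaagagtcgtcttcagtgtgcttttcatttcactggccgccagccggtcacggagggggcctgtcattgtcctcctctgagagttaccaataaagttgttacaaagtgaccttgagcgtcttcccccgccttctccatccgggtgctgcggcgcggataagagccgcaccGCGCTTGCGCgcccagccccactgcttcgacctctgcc
Next are the testis form and the general form of complex IV subunit 6b.
Cox6b2: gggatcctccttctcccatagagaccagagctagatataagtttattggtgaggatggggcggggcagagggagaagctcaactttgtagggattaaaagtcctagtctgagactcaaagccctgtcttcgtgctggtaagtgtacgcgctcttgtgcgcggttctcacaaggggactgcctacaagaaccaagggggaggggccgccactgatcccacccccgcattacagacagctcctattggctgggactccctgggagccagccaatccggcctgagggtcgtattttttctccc
Cox6b1: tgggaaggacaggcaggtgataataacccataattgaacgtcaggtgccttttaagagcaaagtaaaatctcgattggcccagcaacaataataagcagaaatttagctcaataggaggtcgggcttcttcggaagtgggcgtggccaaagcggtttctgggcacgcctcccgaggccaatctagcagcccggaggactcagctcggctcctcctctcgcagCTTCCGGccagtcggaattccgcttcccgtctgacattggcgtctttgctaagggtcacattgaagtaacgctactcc
The last 3 are members of complex III and complex I that measured among the largest differences of their complex.
Uqcr11: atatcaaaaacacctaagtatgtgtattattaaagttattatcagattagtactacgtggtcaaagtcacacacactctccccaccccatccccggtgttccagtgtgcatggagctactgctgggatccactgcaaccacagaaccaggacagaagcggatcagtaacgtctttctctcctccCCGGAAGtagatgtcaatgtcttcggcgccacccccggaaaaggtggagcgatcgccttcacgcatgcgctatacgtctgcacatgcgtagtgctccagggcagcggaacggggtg
Ndufs4: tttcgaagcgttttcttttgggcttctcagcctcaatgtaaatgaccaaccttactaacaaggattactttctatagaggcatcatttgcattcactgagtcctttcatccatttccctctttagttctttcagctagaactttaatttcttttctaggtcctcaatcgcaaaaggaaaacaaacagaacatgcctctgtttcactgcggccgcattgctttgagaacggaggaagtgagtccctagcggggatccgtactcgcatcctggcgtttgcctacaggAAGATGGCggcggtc
Ndufb10: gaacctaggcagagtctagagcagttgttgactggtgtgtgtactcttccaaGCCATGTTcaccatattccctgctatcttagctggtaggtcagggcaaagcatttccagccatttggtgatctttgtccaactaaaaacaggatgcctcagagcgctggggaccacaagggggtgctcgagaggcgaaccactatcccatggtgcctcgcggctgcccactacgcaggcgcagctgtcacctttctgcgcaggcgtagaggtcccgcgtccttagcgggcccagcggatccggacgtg

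On build GRCm38.p6, all on the minus strand, these windows are chr11:96075582-96075881 for Atp5g1, chr15:102670998-102671297 for Atp5g2, chr2:73911277-73911576 for Atp5g3, chr7:4753045-4753344 for Cox6b2, chr7:30626065-30626364 for Cox6b1, chr10:80406772-80407071 for Uqcr11, chr13:114388045-114388344 for Ndufs4 and chr17:24724374-24724673 for Ndufb10. The windows of Atp5g2 and Atp5g3 each held 1 NRF1 match, and that of Atp5g1 held 0 matches of the 3 motifs. Cox6b1 held 1 ETS match and Cox6b2 held 0 of the 3. Uqcr11 held 1 ETS match, and Ndufs4 and Ndufb10 held 1 YY1 match each. In these 8 windows 0 matches of different motifs overlapped.

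Proline was set against control to ask which transcripts of the respiratory machinery differ after 5 days. Of the 93 genes 1 rose, Ndufaf6, 0 fell and 92 did not pass (limma, adjusted p of at most 0.05 over all 18193 genes). That is 1.08% of the members, against 4.36% of all genes tested, with 3.03% higher and 1.34% lower. At an unadjusted p under 0.05 limma counted 13 of 93, 5 higher and 8 lower, or 14% against 22.1% of all genes (12.7% higher and 9.32% lower). With all 12 arrays in the fit and replicate as a random block, limma called 14 of the 93 at the adjusted threshold, 5 higher and 9 lower and Cox6b2 and Atp5g1 among them, against 21.9% of all genes. Measured differences were small: the median log2 fold change was -0.11 over the members and -0.03 over all genes, and its size without sign had a median of 0.15 and 0.18. For 87 of the 93 genes the 95% interval of the fold change lay within 2-fold either way, or 93.5% against 78.3% of all genes, and for 60 it lay within 1.5-fold, or 64.5% against 48.5%. A gene that did not pass is thus bounded by its interval, and 4 of the 93 measured over 1.5-fold either way: Ndufaf6, Cox6b2, Atp5g1 and Ndufa4l2.

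**Figure D1:**
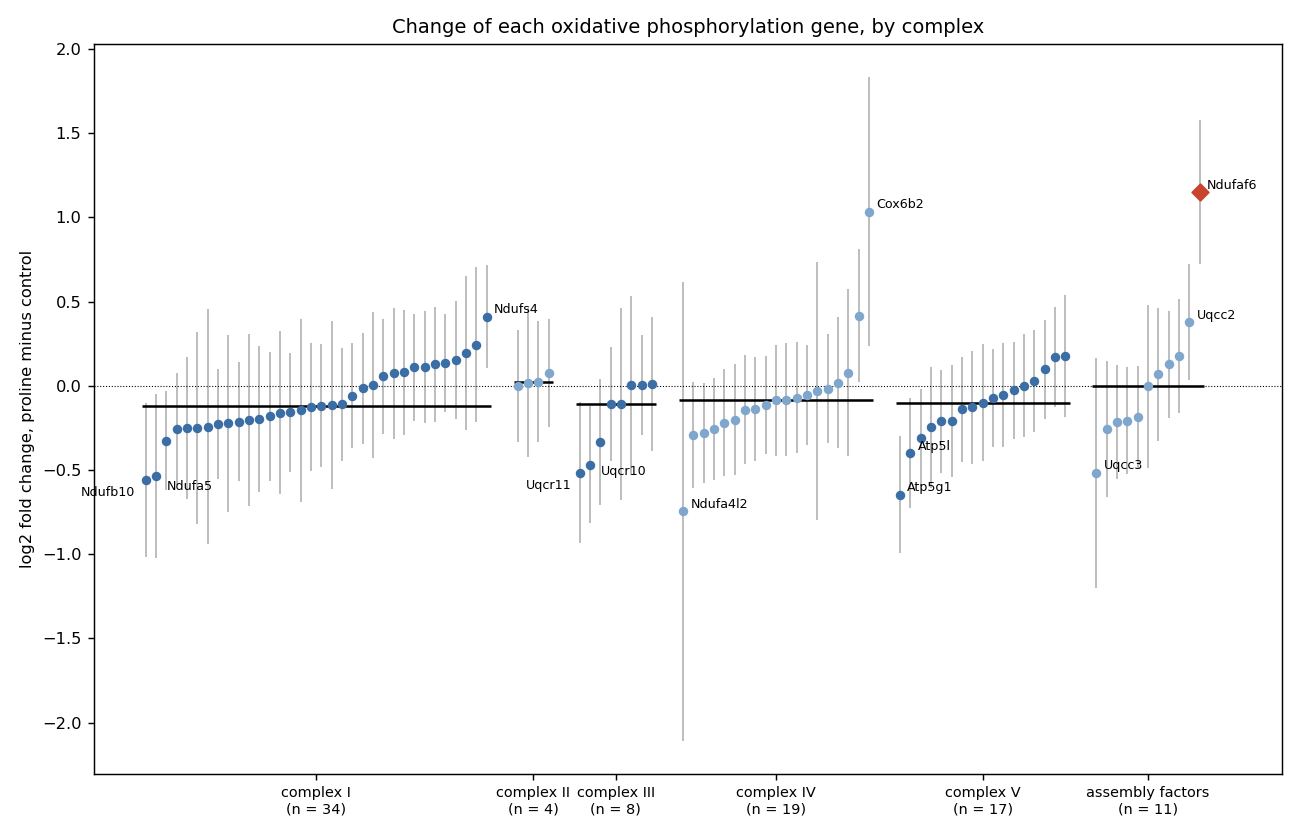
Log2 fold change of proline minus control for each of the 93 genes, sorted within its complex. Points are limma estimates, grey lines their 95% intervals and black bars the medians of each complex; the red diamond is Ndufaf6, which passed the adjusted threshold, and the medians lie between -0.12 and 0.02.

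A signal lower after proline was the more common direction, with 61 of 93 fold changes below 0, or 65.6%, against 56.1% of all genes. The controls differed among themselves as well. Control replicate 2 was below control replicate 1 in 71 of the 93 genes, with a median difference of -0.15, against -0.02 over all genes. Proline replicate 2 was below proline replicate 1 in 51 of the 93, with a median difference of -0.03, as over all genes. Without control replicate 1 the median log2 fold change was -0.023 over the members and -0.021 over all genes. Counted by replicates, the 2 proline means lay wholly above the 2 control means for 14 genes and wholly below for 33. Together these are 50.5% of the members, against 52.7% of all genes, with 15.1% against 24.0% higher and 35.5% against 28.7% lower. Counted by single arrays, the groups did not overlap for 6 genes higher and 15 lower, or 22.6% of the members against 24.6% of all genes (13.8% higher and 10.8% lower).

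Ndufaf6 was the one gene that rose. It encodes a complex I assembly factor that is needed for the membrane arm that holds mitochondrially encoded subunits. Its log2 signal averaged 9.64 and 10.003 in the proline replicates, against 8.66 and 8.68 in the control replicates. The 6 proline arrays ran from 9.63 through a median of 9.80 to 10.06, and the 6 control arrays from 8.58 through 8.67 to 8.74. All proline arrays thus lay above all control arrays, and the gap between the groups exceeded the difference between replicates in either group. The log2 fold change was 1.15 ± 0.16 (moderated SE), a fold of 2.22 with an adjusted p of 0.0411 in limma. The call was lost when any 1 replicate was left out, as were all calls over all genes. The adjusted p was then 0.0524 without proline replicate 1, 0.106 without proline replicate 2, 0.171 without control replicate 1 and 0.115 without control replicate 2, and log2 fold changes in these 4 fits lay between 0.97 and 1.33. It was 0.0535 where genes were read as the median over their probe sets and 0.0661 where every probe set was tested by itself, although Ndufaf6 has 1 probe set and its fold change was the same in both.

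The other 10 assembly factors measured between -0.52 and 0.38. Uqcc2, which with Uqcc1 helps to make cytochrome b of complex III, read 11.52 and 11.62 with proline against 11.29 and 11.09 in controls. Its arrays did not overlap between the groups, and its log2 fold change was 0.38 ± 0.13 (adjusted p = 0.196 in limma). Its second probe set, dimmer, measured 0.08. Uqcc3, another assembly factor of complex III, read 9.61 and 9.18 with proline against 10.19 and 9.63 in controls, a difference of -0.52 ± 0.26 (adjusted p = 0.343). The higher proline mean was thus just under the lower control mean, and replicate 2 minus replicate 1 was itself -0.43 in proline and -0.57 in control. Ndufaf1, Ndufaf2, Ndufaf5 and Ndufaf8 measured -0.18, -0.22, -0.21 and -0.26, Ndufaf3, Ndufaf4 and Ndufaf7 measured 0.07, -0.003 and 0.18, and Uqcc1 0.13. Over all 11 assembly factors the median was -0.003, with 6 below 0 and 5 above.

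**Figure D2:**
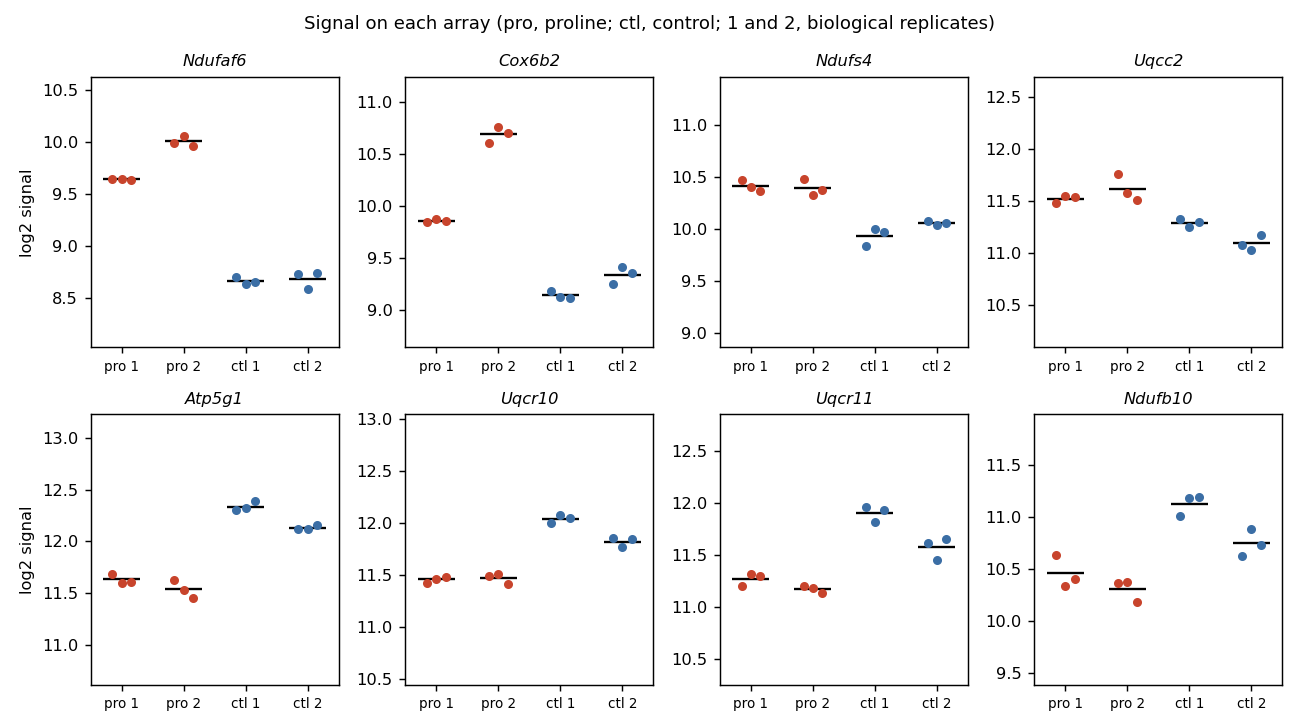
Log2 signal on every array for 8 genes, with the proline replicates left of the control replicates. Points are single arrays, bars the means of 3 arrays, and every panel spans the same log2 range; Ndufaf6 lies at or above 9.63 on the proline arrays and at or below 8.74 on the control arrays, while in Ndufb10 the groups touch at 10.63.

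Complex I, the NADH dehydrogenase, held 0 called genes among 34, with 1 higher and 3 lower at an unadjusted p under 0.05. For this and the complexes below, the shares over all genes were 4.36% called, and 12.7% higher and 9.32% lower at that unadjusted p. Its median log2 fold change was -0.12, and 22 of 34 were below 0. The 6 measured subunits of the catalytic core, which carries the flavin and the iron-sulfur clusters, had a median of -0.08, with 4 of 6 below 0 and 0 at an unadjusted limma p under 0.05; over the 4 pairs of replicates this median ranged from -0.24 to 0.16. The core subunits Ndufs1, Ndufv1, Ndufs7 and Ndufs3 measured -0.26, -0.25, -0.15 and -0.01, and Ndufv2 and Ndufs8 measured 0.06 and 0.20, each with an interval that includes 0.

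Among the accessory subunits of complex I, Ndufb10 read 10.46 and 10.30 with proline against 11.13 and 10.75 in controls. Its log2 fold change was -0.56 ± 0.17 (adjusted p = 0.161), and the highest proline array and the lowest control array both read 10.63, with a slight overlap. Ndufa5 read 10.33 and 9.99 with proline against 10.84 and 10.55 in controls, a log2 fold change of -0.54 ± 0.18 (adjusted p = 0.193), and its second probe set measured -0.42. The highest proline array of Ndufa5 read 10.42 and its lowest control array 10.43, so the groups did not overlap but nearly touched. Ndufs4, an accessory subunit needed for a stable complex I, read 10.42 and 10.40 with proline against 9.94 and 10.06 in controls. All its proline arrays lay above all control arrays, with a log2 fold change of 0.41 ± 0.12 (adjusted p = 0.138). The 3 other probe sets of Ndufs4 measured -0.69, -0.04 and 0.15, so its direction rests on the brightest one. Ndufb1 was the other accessory subunit at the upper end, with 0.24 ± 0.17. Ndufa9 read 11.12 and 11.18 with proline against 11.50 and 11.45 in controls, a log2 fold change of -0.33 ± 0.11 (adjusted p = 0.195) with no overlap of arrays. Ndufb4, at -0.25 ± 0.16, was read by a dim probe set with a mean signal of 3.70.

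The 2 control replicates differed in complex I by more than the groups did. Control replicate 2 was lower than control replicate 1 in 29 of 34 genes, with a median difference of -0.21, and in 6 of 6 core subunits. The proline replicates moved the same way by less. Proline replicate 2 was lower than proline replicate 1 in 22 of 34 genes, with a median difference of -0.10, and in 5 of 6 core subunits. Set against control replicate 1, the proline replicates had complex I medians of -0.19 and -0.20, and against control replicate 2 they had 0.08 and 0.01. Without control replicate 1 the median of complex I was 0.04. The direction of the complex I median thus turned with the control replicate used. For 18 of the 93 genes the probe set used carries the maker's suffix for probes shared with other transcripts, so signal of a near-identical copy cannot be told apart there.

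**Figure D3:**
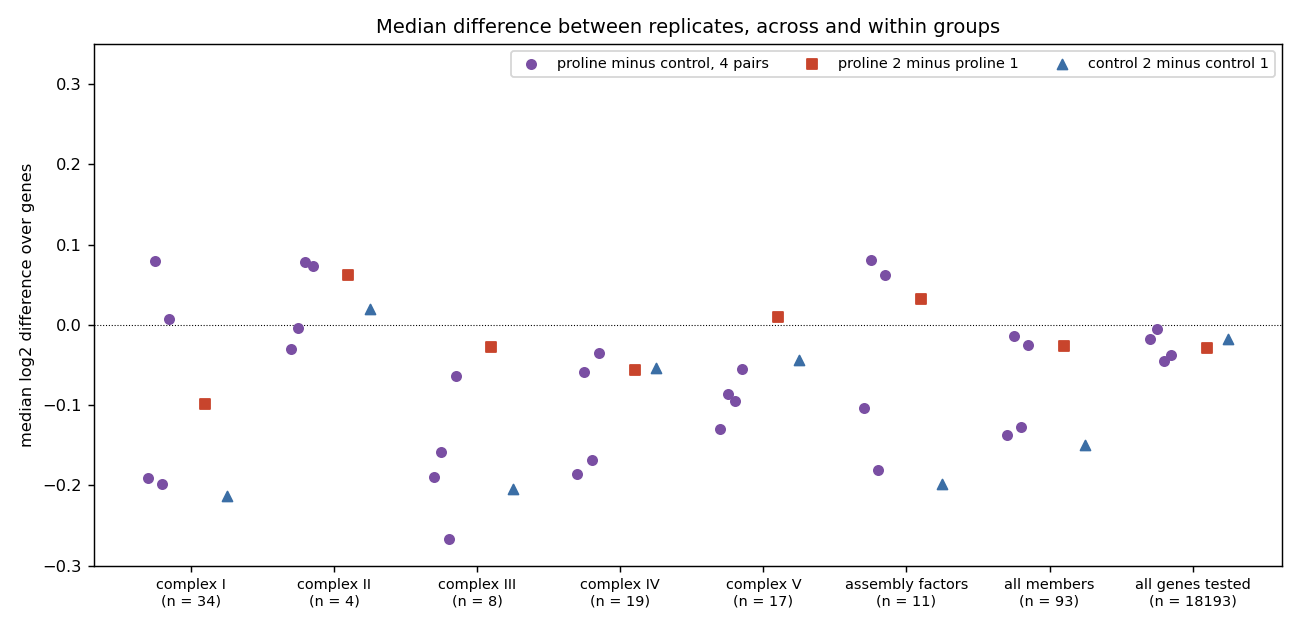
Median log2 difference over the genes of each complex, over all 93 genes and over all genes tested. Purple points are the 4 pairs of a proline and a control replicate, red squares proline replicate 2 minus proline replicate 1, and blue triangles control replicate 2 minus control replicate 1; in complex I the control difference of -0.21 is as large as the lowest pair, -0.20.

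Complex II is the one respiratory complex encoded wholly in the nucleus, and it doubles as succinate dehydrogenase of the tricarboxylic acid cycle. By their brightest probe sets its 4 genes measured within 0.08 of 0. Sdha, the flavoprotein, read 11.18 and 11.16 with proline against 11.01 and 11.18 in controls. Sdhb, the iron-sulfur subunit, read 11.57 and 11.55 with proline against 11.66 and 11.41 in controls. Of the membrane anchors, Sdhc read 11.36 and 11.51 with proline against 11.49 and 11.37 in controls. In all 4 genes the groups overlapped, as in Sdhd with 11.31 and 11.57 with proline against 11.28 and 11.56 in controls. The log2 fold changes of Sdha, Sdhb, Sdhc and Sdhd were 0.08, 0.02, -0.0005 and 0.02, and all 4 of their 95% intervals lay within 1.5-fold. A second probe set of Sdha, nearly as bright (mean signal 11.08 against 11.13), measured -0.11. Its dim probe sets measured -0.09 and -0.26, and the second probe sets of Sdhc and Sdhd measured 0.05 and -0.01.

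Complex III held 0 called genes among 8 and 2 lower at an unadjusted p under 0.05. Its core proteins Uqcrc1 and Uqcrc2, and the Rieske iron-sulfur protein Uqcrfs1 measured 0.01, 0.0025 and 0.01. The small accessory subunits Uqcr11 and Uqcr10 measured lowest. Uqcr11 read 11.28 and 11.18 with proline against 11.91 and 11.58 in controls, with a log2 fold change of -0.52 ± 0.16 (adjusted p = 0.158). Uqcr10 read 11.45 and 11.47 with proline against 12.04 and 11.82 in controls, a log2 fold change of -0.47 ± 0.13 (adjusted p = 0.136). All 6 proline arrays lay below all 6 control arrays in both genes. Uqcr11 has 1 probe set, while the 2 dimmer probe sets of Uqcr10 measured 0.13 and -0.08. Uqcrq, another small subunit, measured -0.33 ± 0.14 (adjusted p = 0.273), and Uqcrb and Uqcrh measured -0.11 each. The median over complex III was -0.11, and it ranged from -0.27 to -0.06 over the 4 pairs of replicates. Control replicate 2 minus control replicate 1 had a median of -0.20.

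Complex IV, cytochrome c oxidase, held 0 called genes among 19 and 2 higher at an unadjusted p under 0.05. Its 12 members other than tissue forms had a median of -0.13, with 10 of 12 below 0. They ran from -0.75 (Ndufa4l2) to 0.08, and over the pairs of replicates their median ranged from -0.19 to -0.06. Control replicate 2 minus control replicate 1 had a median of -0.13 as well, with 8 of 12 lower in control replicate 2. Cox4i1, the general form of the largest nuclear subunit, read 12.89 and 12.79 with proline against 13.19 and 13.07 in controls, a log2 fold change of -0.29 ± 0.12 (adjusted p = 0.253). Cox6c and Ndufa4 measured -0.26 ± 0.11 and -0.22 ± 0.12. In Cox4i1, Cox6c and Ndufa4 all proline arrays lay below all control arrays. Cox5a, Cox6a1, Cox6b1, Cox7a2 and Cox8a measured -0.11, -0.09, -0.07, -0.20 and -0.14, and Cox5b 0.02. Cox7a2l, known for joining complexes III and IV into supercomplexes, measured 0.08 ± 0.19, and all 3 of its probe sets were above 0. Cox7c measured -0.02 by a probe set with a mean signal of 7.61.

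Tissue forms of complex IV subunits did not go one way. Cox6b2, the testis form of subunit 6b, read 9.85 and 10.69 with proline against 9.14 and 9.34 in controls. Its proline arrays ran from 9.84 through a median of 10.24 to 10.76 and its control arrays from 9.11 through 9.21 to 9.41, with no overlap. The log2 fold change was 1.03 ± 0.30, a measured fold of 2.05 that did not pass (adjusted p = 0.146), with the proline replicates 0.83 apart. It was 1.45 without proline replicate 1 and 0.62 without proline replicate 2. Cox7b2, another testis form, measured 0.42 ± 0.15 (adjusted p = 0.209) at signals of 4.76 and 4.45 with proline against 4.20 and 4.18 in controls, all below the 40th percentile of probe sets. Cox8c, a testis form of subunit 8, measured -0.28 ± 0.11 (adjusted p = 0.249).

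The muscle forms Cox6a2, Cox7a1 and Cox8b measured -0.14, -0.03 and -0.08, and Cox4i2, the form of lung and hypoxia, -0.06, each with an interval that includes 0. Ndufa4l2, a paralog of Ndufa4 that is induced by hypoxia, read 6.66 and 6.99 with proline against 8.31 and 6.82 in controls. Its log2 fold change of -0.75 ± 0.52 (adjusted p = 0.499) rests on control replicate 1, and without it the value was 0.0006.

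Complex V, the ATP synthase, held 0 called genes among 17 and 3 lower at an unadjusted p under 0.05. Atp5g1 measured lowest of all subunits of complexes I to V other than Ndufa4l2. It encodes subunit c, of which the rotor ring is made. Its log2 signal was 11.63 and 11.54 with proline, against 12.34 and 12.13 in controls. The proline arrays ran from 11.46 through 11.61 to 11.69 and the control arrays from 12.12 through 12.23 to 12.39, so that the groups lay clearly apart. The log2 fold change was -0.65 ± 0.13, or 1.57-fold lower, and did not pass (adjusted p = 0.0760). It passed with an intensity trend in limma (adjusted p = 0.0464), which called 5.15% of all genes. Its other probe set, at a mean signal of 3.46, measured -0.07.

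Atp5g2 and Atp5g3 encode the same mature subunit c with other import sequences, and by their brightest probe sets they did not measure lower. Atp5g2 read 12.41 and 12.49 with proline against 12.26 and 12.29 in controls, a log2 fold change of 0.17 ± 0.11 (adjusted p = 0.472), with all proline arrays above all control arrays. The 2 dimmer probe sets of Atp5g2, at mean signals of 6.93 and 2.76, measured -0.20 and -0.11. Atp5g3 read 13.56 and 13.64 with proline against 13.53 and 13.61 in controls, a log2 fold change of 0.03 ± 0.12. The difference of Atp5g1 minus Atp5g2 was -0.77 and -0.95 in the proline replicates, against 0.07 and -0.16 in the controls, so it was lower after proline by 0.82 on the log2 scale. Atp5g1 minus Atp5g3 was lower by 0.67, at -1.93 and -2.09 with proline against -1.19 and -1.48 in controls. Cox6b2 minus Cox6b1 was higher by 1.10, at -3.05 and -2.28 with proline against -3.96 and -3.58 in controls. These 3 differences each have a two-sided exact permutation p of 0.333, the smallest that 2 against 2 can give. The other difference computed, Ndufa4l2 minus Ndufa4, was -5.40 and -5.21 with proline against -4.00 and -5.56 in controls, a difference of -0.53 with an exact permutation p of 1. All 4 were chosen after the values were seen.

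**Figure D4:**
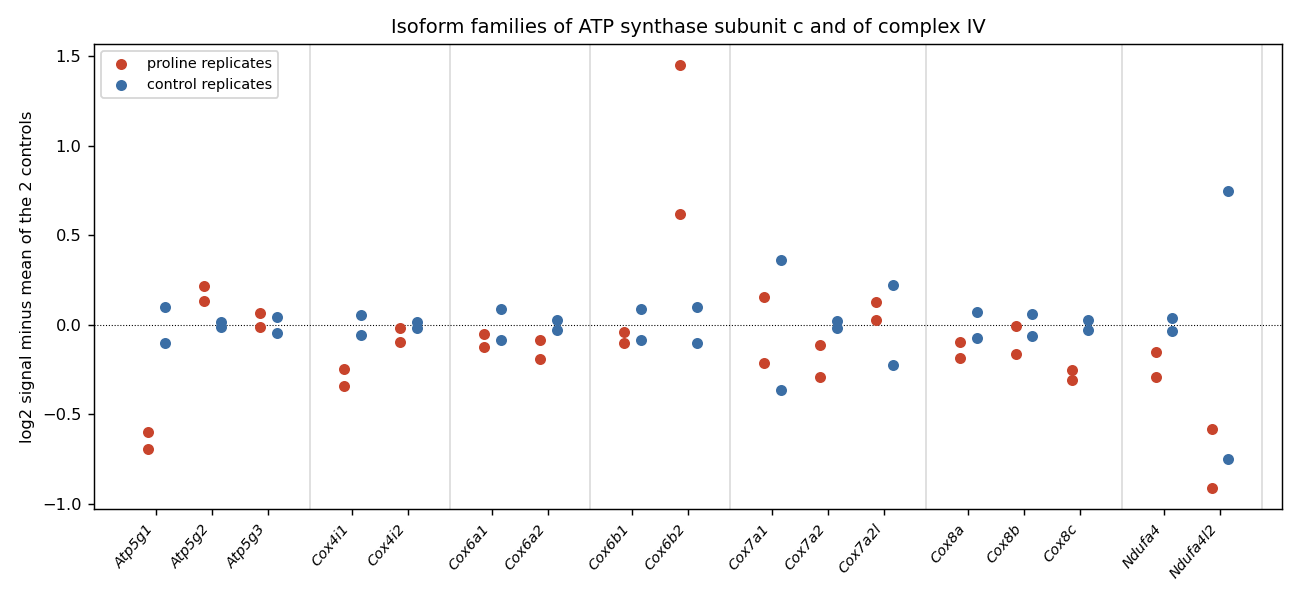
Log2 signal of each replicate minus the mean of the 2 control replicates, for the genes of subunit c of ATP synthase and for isoform families of complex IV. Red points are the proline replicates and blue points the control replicates; Atp5g1 lies at -0.60 and -0.69 with proline while Atp5g2 and Atp5g3 lie near 0 or above it, and Ndufa4l2 has its controls at 0.75 and -0.75.

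Of the catalytic F1 part of ATP synthase, the alpha and beta subunits Atp5a1 and Atp5b measured 0.10 and -0.03, and gamma (Atp5c1), delta (Atp5d) and epsilon (Atp5e) measured -0.07, 0.18 and 0.001. The stalk and membrane subunits were mostly below 0. Atp5l, subunit g, averaged 11.68 ± 0.06 with proline and 12.08 ± 0.11 in controls (SD, n = 2 each), a log2 fold change of -0.40 ± 0.12 (adjusted p = 0.161). Atp5j, the coupling factor of the peripheral stalk, measured -0.31 ± 0.11 (adjusted p = 0.201), and its proline arrays, like those of Atp5l, lay below all control arrays. Atp5pb, Atp5j2, Atp5k, Atp5h, Atp5mpl, Atp5md and Atp5o measured from -0.25 to -0.06. The median of complex V was -0.10, with 12 of 17 below 0 and a range of -0.13 to -0.05 over the 4 pairs of replicates. Here control replicate 2 differed from control replicate 1 by a median of -0.04 and proline replicate 2 from proline replicate 1 by 0.01. The medians of complexes III, IV and V, and that of all genes tested, were below 0 in all 4 pairs. Replicates did not overlap between the groups for 70.6% of the complex V genes, 9 lower and 3 higher, against 52.7% of all genes. The share was 81.8% in assembly factors, 57.9% in complex IV, 37.5% in complex III, 35.3% in complex I and 0% in complex II. No test was made over the 17.

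Genes around the pathway gave 0 calls in limma, against 4.36% of all genes. For comparison with the counts below, 12.7% of all genes were higher and 9.32% lower at an unadjusted limma p under 0.05. Of 33 assembly factors outside the choice by symbol, 4 were higher and 4 lower at an unadjusted p under 0.05, with a median log2 fold change of -0.16. Cox11, which delivers copper to complex IV, measured -0.50 ± 0.13 (adjusted p = 0.113), and Cox16, another complex IV assembly factor, 0.44 ± 0.12 (adjusted p = 0.128). Of 18 regulators and genes that keep mitochondrial DNA, 1 was higher and 3 lower at an unadjusted p under 0.05. Tfb2m, a mitochondrial transcription factor, measured -0.56 ± 0.13 (adjusted p = 0.0932), and Gabpb1, a subunit of GABP, 0.97 ± 0.26 (adjusted p = 0.122). Nrf1 measured 0.30 ± 0.21, Gabpa -0.25 ± 0.13, Yy1 -0.07 ± 0.12, Tfam -0.22 ± 0.12 and Esrra 0.10 ± 0.11. Esrrb, from the naive pluripotency genes and not among these 18, fell by 1.49 ± 0.13 (adjusted p = 0.0246 in limma).

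Electron carriers and subunits outside the choice held 1 higher and 0 lower of 17 at an unadjusted p under 0.05, with cytochrome c (Cycs) at 0.07 ± 0.11 and cytochrome c1 (Cyc1) at 0.09 ± 0.14. The 2 with the smallest p were Pdss2, of coenzyme Q synthesis, with 0.62 ± 0.17 (adjusted p = 0.129), and the glycerol-3-phosphate dehydrogenase Gpd2, with 0.63 ± 0.24 (adjusted p = 0.229). The tricarboxylic acid cycle held 1 higher and 1 lower of 17 at an unadjusted p under 0.05, Dlst of the oxoglutarate dehydrogenase complex at 0.54 ± 0.13 (adjusted p = 0.104) and Pdhx of the pyruvate dehydrogenase complex at -0.40 ± 0.14 (adjusted p = 0.198). Of 9 uncoupling and nucleotide exchange genes 0 reached an unadjusted p under 0.05, with the smallest p in Slc25a31 (-0.94 ± 0.64) and Vdac1 (-0.17 ± 0.14).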

How the data were processed

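The deposited table holds 1 log2 value per probe set and array (45101 probe sets, 12 arrays, values of 2.10 to 14.8). The authors' tools were MAS5 and RMA, as the submitters' processing notes list them; which of these gave the deposited log2 values, and with what settings, is not given in the sources used here. Array medians lay between 5.99 and 6.03, so no further normalization was applied. Gene names come from the platform annotation: 34945 probe sets had 1 symbol and 932 several, and 64 array controls were left out. Each of 18193 genes was read by its brightest probe set over all arrays. Of the members, 53 had over 1 probe set, and in 34 of these all probe sets measured in 1 direction. The 3 arrays of a biological replicate were averaged, since their letters are not explained, and the 2 proline and 2 control means entered limma 3.58.1 (R 4.3.3); p-values were adjusted after Benjamini and Hochberg over the 18193 genes, at a threshold of 0.05. Intervals cover 95%. The number of replicates limits the precision (2 residual degrees of freedom).

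Members and gene lists were chosen with earlier results of these data known. Named are each member past the threshold, the 2 highest and 2 lowest fold changes of each complex, isoform families, all Sdh genes and, of each list, the 2 genes with the smallest p; others illustrate a complex and were chosen after their values were seen. Levels of different probe sets were not ranked, since their signals are not comparable. Alternatives covered normalization, probe set choice, dim genes (below 5.36), blocks, an intensity trend and leaving out each replicate. The fit was tested on simulated data.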

Additional observations from a re-analysis of the deposited data

How the results depend on the processing

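Reading genes as the median over their probe sets left 0 members called and 233 genes higher and 118 lower, and put the complex V median at -0.18. Testing every probe set by itself left 0 members called, with 128 probe sets higher and 59 lower. Of 185 member probe sets, 23 were higher and 65 lower without overlap of replicates. That share was not counted over all probe sets, so these counts are not to be set against those by gene. The complex V median was -0.14 in this setting, and -0.14 too without shared (_s_at and _x_at) probe sets. With the replicate block 2 members were higher (Ndufaf6, Cox6b2 at an adjusted p of 0.0405) and 1 lower (Atp5g1 at 0.0428), and 1282 genes were higher and 757 lower, or 11.2% of all. Deviations of same-numbered replicates correlated at 0.338 across genes, but 2 pairs do not show that the numbers pair the samples. With 12 arrays and replicate as a random block, 5 members were higher and 9 lower and 2318 genes higher and 1669 lower, or 21.9% of all, while 6 and 15 members had arrays that did not overlap. An intensity trend called 1 member lower, Atp5g1, and the subunits without assembly factors held 0 higher.

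Leaving out 1 replicate at a time (the lone sample is assumed to vary like the other group) left 0 to 0 members and 0 to 0 genes called in either direction, with 2766 to 3676 genes at an unadjusted limma p under 0.05. Members at that p numbered 5 without proline replicate 1, 4 without proline replicate 2, 4 without control replicate 1 and 9 without control replicate 2, against 13 with all replicates. Members without overlap then numbered 18 to 32 higher and 37 to 64 lower. With a replicate left out the groups separate more readily, and the same share over all genes was not counted. These counts thus say nothing particular to the members. Medians ranged from -0.16 to -0.023 over all members, -0.19 to 0.038 in complex I, -0.020 to 0.068 in complex II, -0.23 to -0.092 in complex III, -0.16 to -0.039 in complex IV, -0.13 to -0.052 in complex V and -0.19 to 0.15 over assembly factors. Ndufa4l2 ranged from -1.49 without control replicate 2 to 0.00057 without control replicate 1. The cause of these shifts was not tested.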

Other observations

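Of the genes outside the choice by symbol with wide differences between replicates, 2 are given here, and both were chosen after their values were seen. Cyct, the testis cytochrome c, read 6.53 and 6.02 with proline against 8.03 and 6.75 in controls, a log2 fold change of -1.12 ± 0.47 (adjusted p = 0.267 in limma). Slc25a31, the testis ADP/ATP carrier, read 5.70 and 4.51 with proline against 6.80 and 5.29 in controls, a log2 fold change of -0.94 ± 0.64 (adjusted p = 0.496 in limma). In both genes replicate 2 was below replicate 1 in each group.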
